A study of Mus musculus with 5 samples.

Results

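Natural killer (NK) cells were examined in a single-cell RNA sequencing dataset of mouse kidney after unilateral ischemia-reperfusion (UIR), an acute kidney injury (AKI) model in which blood flow to the left kidney is clamped for 35 minutes and then restored. Per the study's methods and labels, wild-type male C57BL/6J mice aged 6 to 8 weeks were used, and each of the 5 kidney samples came from 3 mice. The methods also count more matrices than the 5 libraries analysed here, so it is not settled whether the mice of a sample were pooled before capture. Of the samples, 4 were taken 1, 3, 14 or 28 days after injury, with the right kidney left intact, and 1 followed sham surgery. The labels name the cell type goblet cell, but in the kept barcodes defined next none held 3 or more of 6 goblet markers (Muc2, Tff3, Spdef, Fcgbp, Clca1 and Zg16), and no NK barcode held any. The barcodes carry library numbers 1 to 5 that the labels do not tie to a condition, so the 5 libraries were treated as 1 pooled sample, no result is given by time point, and no test between groups was possible.

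NK barcodes were chosen by 9 genes. Among barcodes with at least 500 unique molecular identifiers (UMIs, each standing for 1 captured mRNA), at least 200 genes and at most 25% of UMIs on mitochondrial genes, called kept barcodes, an NK barcode had at least 1 UMI of Ncr1 or Klrb1c and at least 1 of Nkg7. It also had none of Cd3d, Cd3e, Cd3g or Cd79a, at most 2 of Lyz2 and at most 1 of Lrp2. The rule found 146 NK barcodes of 79202 kept barcodes, or 0.184% (exact 95% interval 0.156 to 0.217%). Of the kept barcodes, 266 held a UMI of Ncr1 or Klrb1c, 217 of these also held Nkg7, and 180 of these lacked Cd3d, Cd3e and Cd3g. The Cd79a limit left 178, the Lyz2 limit left 177, and the Lrp2 limit left the final 146. NK barcodes had a median of 1559 UMIs and 785.5 genes, and 269084 UMIs in all. Every interval given here covers counting error only and not the spread between libraries or mice. Those of summed UMIs treat each UMI as independent, and so leave out the spread between barcodes too.

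NK cells are innate lymphocytes that kill stressed or infected cells without a rearranged antigen receptor. Each cell weighs signals from activating receptors against inhibitory receptors that recognise MHC class I molecules, and then releases granules that carry perforin, which opens the target membrane, and granzymes, the proteases that enter through it. NK cells also secrete chemokines and interferon gamma. In the injured kidney they are known as early responders that can kill tubular epithelial cells.

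Of the 5 marker genes, 3 chose the barcodes. Ncr1 encodes the receptor NKp46 and lies at chr7:4337724-4345164 on the plus strand of mm10. Klrb1c encodes NK1.1 and lies at chr6:128778485-128789215 on the minus strand. Nkg7 encodes a granule membrane protein. The other markers, Gzma (granzyme A) and Prf1 (perforin), were not used by the rule. The 250 bases upstream of the RefSeq start of 4 markers are shown because these genes mark the class. Each is written 5′ to 3′ on the strand of its gene in GRCm38.p6, and capitals mark a match to TGTGGTT (RUNX), TCACACC (T-box) or AGGAAGT (ETS) on either strand.
Ncr1, chr7:4337465-4337714, plus strand: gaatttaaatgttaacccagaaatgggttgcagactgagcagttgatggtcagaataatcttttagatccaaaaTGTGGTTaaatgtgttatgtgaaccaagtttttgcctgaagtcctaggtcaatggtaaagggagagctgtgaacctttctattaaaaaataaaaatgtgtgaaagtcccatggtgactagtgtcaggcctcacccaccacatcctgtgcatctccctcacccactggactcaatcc
Gzma, chr13:113100982-113101231, minus strand: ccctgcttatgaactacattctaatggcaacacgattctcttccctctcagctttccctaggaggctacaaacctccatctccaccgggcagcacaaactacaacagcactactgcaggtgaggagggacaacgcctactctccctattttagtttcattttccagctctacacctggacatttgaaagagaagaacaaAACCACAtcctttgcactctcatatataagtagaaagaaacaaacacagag
Prf1, chr10:61297586-61297835, plus strand: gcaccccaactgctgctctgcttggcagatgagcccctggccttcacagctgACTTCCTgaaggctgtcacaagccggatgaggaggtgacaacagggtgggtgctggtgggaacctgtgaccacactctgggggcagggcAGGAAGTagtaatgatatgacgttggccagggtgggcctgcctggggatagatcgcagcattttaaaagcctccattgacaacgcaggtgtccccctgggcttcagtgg
Nkg7, chr7:43436888-43437137, plus strand: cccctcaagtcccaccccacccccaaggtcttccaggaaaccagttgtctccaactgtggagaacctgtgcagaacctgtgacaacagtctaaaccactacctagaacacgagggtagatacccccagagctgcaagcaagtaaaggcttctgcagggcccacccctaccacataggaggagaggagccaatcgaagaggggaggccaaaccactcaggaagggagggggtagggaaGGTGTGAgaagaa
The Ncr1 and Gzma windows each held the RUNX letters once, the Prf1 window held the ETS letters at 2 places, and the Nkg7 window held the T-box letters once. The Klrb1c window held none of these letters. GENCODE starts Nkg7 farther upstream than RefSeq, so the last 65 bases of the Nkg7 window, T-box letters included, lie inside the annotated gene, as do the last 3 bases of the Prf1 window and all 250 of the Klrb1c window. Over 32851 promoter windows of the same length, 4.40% held the RUNX letters, 7.69% the ETS letters and 3.33% the T-box letters.

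The libraries differed in depth and in their lymphocytes. Library 3 stood apart, with 33839 kept barcodes at a median of 1242 UMIs, against 10020 to 12745 kept barcodes at medians of 3190 to 4294.5 UMIs in the others. No NK barcode sequence recurred in another library. NK barcodes numbered 21, 22, 66, 31 and 6 in libraries 1 to 5, which is 0.210%, 0.194%, 0.195%, 0.275% and 0.0471% of their kept barcodes. The shares in libraries 1 to 4 had overlapping intervals, and library 5 was the lowest, with an interval (0.0173 to 0.102%) that lay below those of the other libraries. Of kept barcodes with a UMI of the leukocyte gene Ptprc, NK barcodes made up 2.09%, 1.51%, 3.34%, 5.52% and 2.65% in libraries 1 to 5. Library 5, with only 113 such barcodes, was not the lowest by this share.

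NK barcodes were compared with CD8 and CD4 T cells as reference lymphocytes. CD8 T barcodes met the same limits on depth, mitochondrial share, Cd79a, Lyz2 and Lrp2, had a UMI of Cd3d, Cd3e or Cd3g and of Cd8a or Cd8b1, and had no Cd4, Ncr1 or Klrb1c (387 barcodes). CD4 T barcodes were defined alike with Cd4 in place of Cd8a and Cd8b1 (178 barcodes). NK barcodes made up 9.01% of the 3 classes in library 1 (exact 95% interval 5.67 to 13.4%) and 9.21% in library 2 (5.86 to 13.6%). In libraries 3, 4 and 5 they made up 41.5% (33.8 to 49.6%), 46.3% (34.0 to 58.9%) and 46.2% (19.2 to 74.9%). T barcodes were the majority of the 3 classes in every library, and by a wider margin in libraries 1 and 2, which held 145 and 141 CD8 T barcodes against 69, 25 and 7 in libraries 3 to 5.

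**Figure D1:**
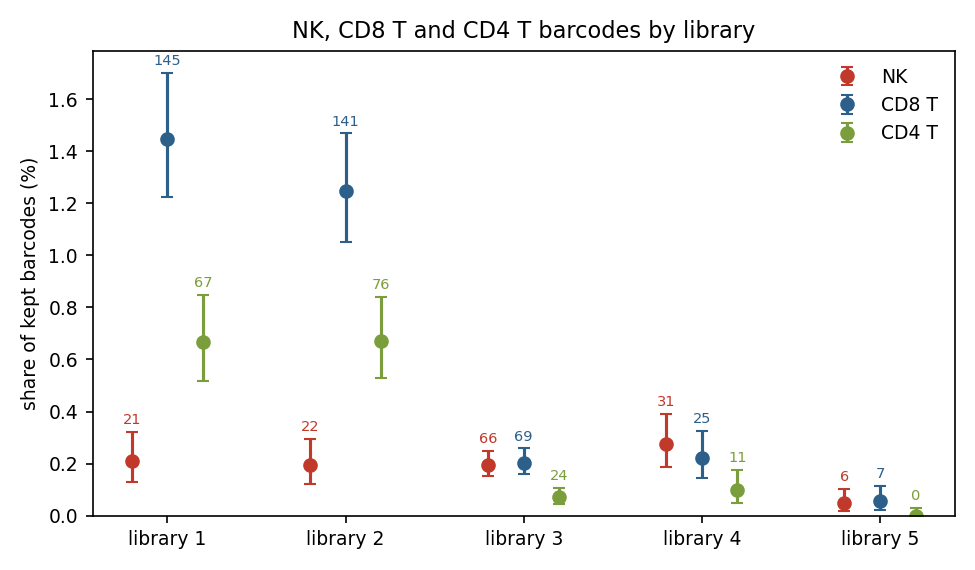
Share of kept barcodes (%) that were NK, CD8 T and CD4 T in each library, with exact 95% binomial intervals as bars and the number of barcodes above each point. NK shares sit between 0.0471% and 0.275%, while CD8 T shares reach 1.45% in library 1 and 1.25% in library 2.

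Gzma and Prf1 were not used by the rule and were compared between the classes. The rule did ask for Nkg7, another granule gene, in NK but not in the T classes. The comparison is thus not independent of the rule. Values are the summed UMIs of a gene per 1000000 UMIs of the class (CPM). Gzma stood at 6953, 7141, 8351, 6066 and 9844 CPM in the NK barcodes of libraries 1 to 5, and at 175, 1072, 363 and 686 CPM in the CD8 T barcodes of libraries 1 to 4. The lowest NK library was thus above the highest CD8 T library. Over all libraries Gzma was 7444 CPM in NK (95% interval 7121 to 7777), 619 in CD8 T and 27.6 in CD4 T, and 88.4% of NK barcodes held a UMI (82.0 to 93.1%). Prf1 stood at 1054, 413, 536, 695 and 1616 CPM in the NK barcodes of libraries 1 to 5, against 34.0 to 75.0 CPM in CD8 T, again without overlap. Free RNA was low for both genes: in 19917 proximal tubule barcodes, defined by at least 5 UMIs of Lrp2 and with a median depth of 8029 UMIs, 0.316% held Gzma and 0.120% held Prf1. With every barcode thinned to 500 UMIs, which left out no NK barcode, Gzma was seen in 80.8% of NK, 8.53% of CD8 T and 0.05% of 2000 proximal tubule barcodes. NK barcodes were 0.184% of kept barcodes and held 46.2% of all Gzma UMIs and 45.0% of Prf1 UMIs in them.

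A list of 10 NK-associated genes outside the rule (Gzma, Prf1, Klre1, Klrk1, Klrd1, Eomes, Tbx21, Il2rb, Txk and Ccl5) was counted in each barcode after thinning. NK barcodes held a median of 3 of the 10, CD8 T barcodes 1 and CD4 T barcodes 0. At least 3 of the 10 were seen in 73.3% of NK barcodes, 6.72% of CD8 T, 0.562% of CD4 T and 0.05% of proximal tubule barcodes. The 31 barcodes that met the NK rule but for a Cd3 UMI lay between, with a median of 2 of the 10 and 38.7% at 3 or more. Genes that the rule did not read were thus more frequent in NK barcodes than in these classes, with overlap.

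Gzma differed between barcodes just inside and just outside the limits of the rule, which is a description. The 58 NK barcodes with exactly 1 UMI of Ncr1 and Klrb1c had 6817 CPM of Gzma and the 88 with 2 or more had 7789 CPM, while 154 barcodes outside the rule with none of either, but with Nkg7 and without Cd3 genes, had 1868 CPM. Gzma was at 7954 CPM in the 130 NK barcodes with 2 or more UMIs of Nkg7 and 3758 CPM in the 16 with 1. It was at 801 CPM in 18 barcodes that only the Nkg7 limit left out. The 31 barcodes that the Lrp2 limit left out had 2869 CPM of Gzma at 2 or 3 UMIs of Lrp2 (18 barcodes) and 1767 CPM at 4 or more (13 barcodes, median 8926 UMIs). The 10 NK barcodes under 1000 UMIs had 11081 CPM of Gzma. The 4 NK barcodes at 20 to 25% mitochondrial UMIs had 808 CPM of Gzma and no Prf1 UMI. No barcode that met the other limits had between 400 and 500 UMIs or between 25 and 30% mitochondrial UMIs.

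Differences between classes are given as log2 ratios of CPM, with 0.5 UMI added to each sum, for genes with at least 20 UMIs over both classes, and a gene past 4-fold (a log2 ratio of at least 2 in size) was counted as higher or lower. Against CD8 T barcodes, 67 of 5985 genes (1.12%) were higher in NK past 4-fold and 157 (2.62%) were lower. Against CD4 T barcodes, 76 of 4501 genes (1.69%) were higher and 135 (3%) were lower. Counts were also simulated with 100 genes raised and 100 lowered 8-fold. There 1.87% of the unchanged genes passed 4-fold in either direction against CD8 T and 0.243% against CD4 T. These rates include any shift that the raised genes gave the others. The simulation held no spread between barcodes or libraries beyond counting error, so the rates in the real counts may be higher. A gene counted as higher or lower may thus not differ. The median log2 ratio of all genes was 0.08 against CD8 T and -0.03 against CD4 T. Of the 157 genes lower against CD8 T, 48 had no UMI in NK, and with such sums set to 3 UMIs 126 stayed lower past 4-fold (133 of 135 against CD4 T), while all 67 and 76 higher genes stayed. The rules of the classes fixed Ncr1, Klrb1c and the Cd3, Cd8 and Cd4 genes, and asked for a UMI of Nkg7 in NK only. The T classes left out barcodes with Ncr1 or Klrb1c, so genes seen with these are not independent of the rules either. The 31 barcodes that met the NK rule but for a Cd3 UMI were among those left out. They held 44 UMIs of Klra1, 162 of Fcer1g and 50 of Tyrobp, against 7, 85 and 71 in the 387 CD8 T barcodes. Counts of list members are descriptions, to be read beside these shares of all genes.

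Most of the highest ratios belonged to receptors. Among genes with at least 50 UMIs over both classes, the 10 highest against CD8 T were Klrb1c and Ncr1, then Klra4, Klra8, Klrb1b, Klri2, Klrb1a, Klra9, Irf8 and Tyrobp. The 10 lowest were the 5 Cd3 and Cd8 genes, then Gzmk, Cd6, Gm8369, Ifi27l2a and Themis. Klrb1a, an activating relative of NK1.1, had 56 UMIs in NK and 1 in CD8 T, a log2 ratio of 7.11 (5.15 to 13.01). In all, 40 genes were higher against both T classes, of which Ncr1 and Klrb1c were fixed by the rules.

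Cytotoxic effector genes split between a few that stood far above CD8 T barcodes and many that did not. Of 15 members outside the rule that could be compared with CD8 T, 3 were higher past 4-fold (Gzma, Prf1 and Serpinb9), 1 was lower (Gzmk), and the median log2 ratio was 0.48. Gzma had a log2 ratio of 3.59 (95% interval 3.46 to 3.72) and Prf1 of 3.28 (2.86 to 3.72). Both were higher in each of the 4 libraries with at least 20 barcodes of each class, at 2.74 to 5.30 for Gzma and 2.47 to 3.91 for Prf1. Serpinb9, an inhibitor that protects killer cells from their own granzyme B, was at 695 CPM in NK and 165 in CD8 T, a log2 ratio of 2.08 (1.77 to 2.39). It fell short of 4-fold under 4 of 19 alternative settings, among them without library 3 (1.89) and without NK barcodes that held Trac or Trbc1 (1.84). The alternatives with filters of 5 and 100 UMIs could not change the ratio of a gene, here or in the later counts of 19.

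Granzymes B and K separated from granzyme A. Gzmb, the granzyme that cleaves caspases, was at 974 CPM in NK and 590 in CD8 T, a log2 ratio of 0.72 (0.51 to 0.93) that ranged from 0.01 to 3.38 over libraries 1 to 4. Gzmk had 0 UMIs in NK barcodes and 207 in CD8 T, at least 18.8-fold lower in NK when the NK sum is set to 3 UMIs. The granule proteins Ctsw and Srgn differed less, with log2 ratios of 0.48 and -0.21. Against CD4 T barcodes 6 of 14 effectors outside the rule were higher and none was lower, and Gzmb was among them at 3.87 (3.35 to 4.47).

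**Figure D2:**
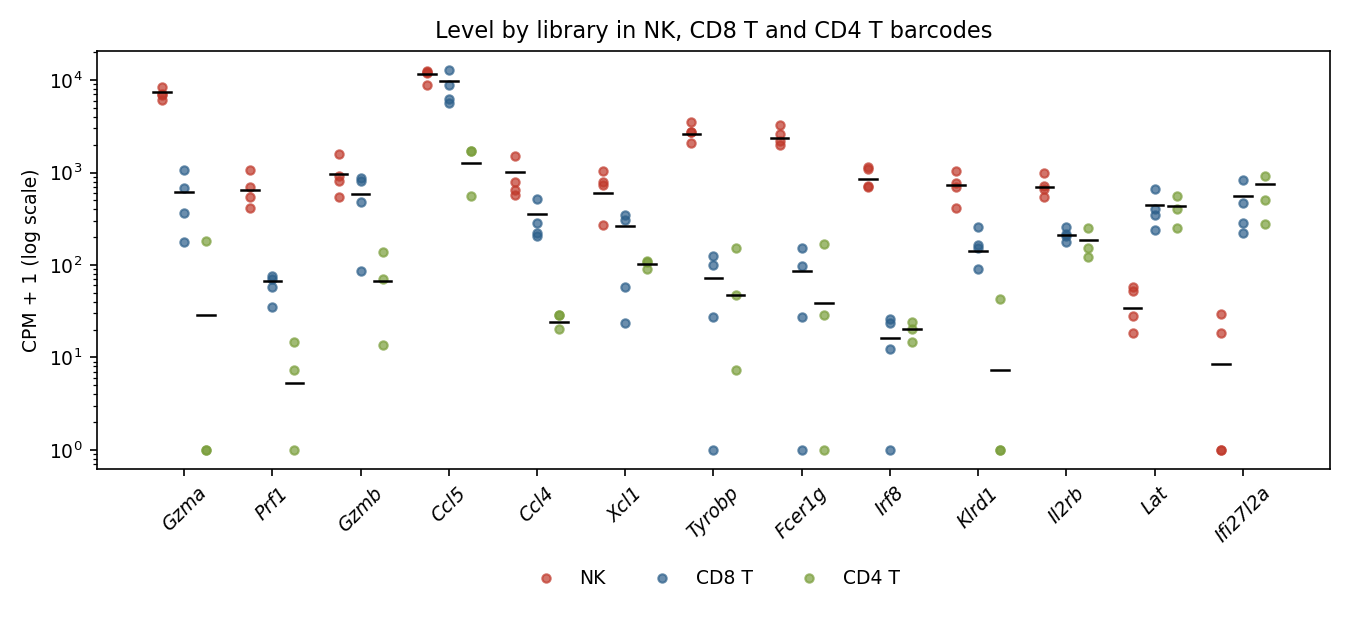
CPM + 1 (log axis) of 13 genes, where each point is the barcodes of a class in 1 library (NK and CD8 T in libraries 1 to 4, CD4 T in libraries 1 to 3) and black lines mark the class over all libraries. Gzma, Prf1, Tyrobp, Fcer1g and Irf8 have every NK point above every T point, Ccl5 overlaps between NK and CD8 T, and Lat and Ifi27l2a have every NK point below.

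Activating receptors leaned higher in NK. Besides Ncr1 and Klrb1c, which the rule fixed, 6 of 10 members were higher past 4-fold against CD8 T (Klrk1, Klrc2, Cd244a, Klrb1a, Klrb1f and Klra8), none was lower, and the median log2 ratio was 2.40. Klrk1, which encodes NKG2D, the receptor for stress ligands, was at 606 CPM in NK, 100 in CD8 T and 25.5 in CD4 T. Its log2 ratio against CD8 T was 2.60 (2.23 to 2.97), and it was higher in all 4 libraries compared. Cd244a, which encodes 2B4, a receptor for CD48, had 22 UMIs in NK and a ratio of 2.98 (1.88 to 4.26). Klrc2, which encodes NKG2C, had a ratio of 2.20 (1.57 to 2.84), which fell short of 4-fold in NK barcodes with at least 2 UMIs of Ncr1 and Klrb1c (1.66) and after thinning (1.89). Cd226, which encodes DNAM-1, the receptor for nectin-family ligands, stood on the other side at 55.7 CPM in NK and 188 in CD8 T, a ratio of -1.71 (-2.62 to -0.99).

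The list of inhibitory receptors is not purely inhibitory, since it also holds the activating Klra4 and the partner chains Klrd1, Klre1 and Klri2. It had 9 of 13 members higher past 4-fold against CD8 T, 1 lower and a median log2 ratio of 4.88. Klrd1, which encodes CD94, the partner of the NKG2 receptors, was at 732 CPM in NK, 140 in CD8 T and 6.37 in CD4 T, a ratio of 2.38 (2.06 to 2.71) against CD8 T. Klre1, which pairs with the Klri proteins, was at 580 CPM in NK and 19.2 in CD8 T, a ratio of 4.88 (4.22 to 5.69), and had no UMI in CD4 T. Klrb1b, the NK receptor for the lectin ligand Clec2d, had 62 UMIs in NK and none in CD8 T or CD4 T, at least 76.0-fold and 36.2-fold higher with the T sums set to 3 UMIs. Klri2, a partner of Klre1, had 53 UMIs and none in either T class, at least 65.0-fold higher against CD8 T. The lower member was Pdcd1, the PD-1 gene, with 2 UMIs in NK and 149 in CD8 T (log2 ratio -4.02, interval -7.40 to -2.46), and Havcr2, which encodes TIM-3, had no UMI in NK.

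Most killer lectin genes lie side by side on chromosome 6. A set of 22 Klr genes, those of the lists other than Klrg1 and with Klra2, Klra10 and Klra17 added, spans chr6:128609227-131247362 of mm10, or 2638136 bases, and this interval holds 51 genes of the count table. Klrb1c, which the rules fixed, lies inside and is left out of the counts that follow. These counts are still not independent of the rules, since the T classes left out barcodes with Ncr1 or Klrb1c. Of 21 other genes inside with enough UMIs to compare with CD8 T, 14 were higher in NK past 4-fold. With Ncr1 and Klrb1c left out, 14 of the 38 genes higher against both T classes lay there. The summed CPM of the 21 Klr genes other than Klrb1c was 4671 in NK, 379 in CD8 T, 50.9 in CD4 T and 2.39 in proximal tubule barcodes.

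Ly49 genes (Klra) encode inhibitory and activating receptors for MHC class I, and single NK cells are known to switch on only some of them. The 8 Klra genes counted (Klra1, Klra3, Klra4, Klra5, Klra6, Klra7, Klra8 and Klra9) are closely related copies whose reads can be shared or lost, so the split between members is uncertain. At least 1 of them was seen in 112 of 146 NK barcodes (76.7%, exact 95% interval 69.0 to 83.3%), against 8 of 387 CD8 T and 0 of 178 CD4 T barcodes. The T classes left out barcodes with Ncr1 or Klrb1c, so this contrast is not independent of the rules. The 31 barcodes that met the NK rule but for a Cd3 UMI had a similar share without Ly49 genes. None of the 8 genes was seen in 7 of these 31 (22.6%) and in 34 of the 146 NK barcodes (23.3%). The genes seen differed, with Klra4 in 1 and Klra8 in 1 of the 31, against 42 and 34 of the 146 NK barcodes. Klra1 was more frequent in the 31, as given below. A count of 0, taken as at most 3 barcodes, allows a share of up to 1.69% of CD4 T barcodes with a UMI and sets no limit on cells that express the genes. By library the share was 76.2%, 77.3%, 78.8%, 74.2% and 66.7%, so the libraries differed by less than their intervals.

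The Ly49 genes seen differed from barcode to barcode, and the part of sparse UMI sampling in this was not tested. Of the NK barcodes, 34 held none of the 8 genes, 43 held 1, 39 held 2, 23 held 3 and 7 held 4, and no barcode held more. The median depths of these groups were 1566, 1417, 1490, 1681 and 1629 UMIs. Klra4 and Klra8 were seen together in 10 barcodes, with Klra8 in 23.8% of Klra4-positive and 23.1% of Klra4-negative barcodes. Klra9 was seen in 47.1% of Klra8-positive and 33.0% of Klra8-negative barcodes. The same shares for Klra9 were 38.1% and 35.6% by Klra4, and 35.9% and 36.4% by Klra7. Klra8, which encodes the activating Ly49H, had 64 UMIs in NK and none in T barcodes, at least 78.4-fold higher against CD8 T. Klra4, which encodes the activating Ly49D, had 115 UMIs in NK and none in T barcodes, at least 141-fold higher against CD8 T.

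**Figure D3:**
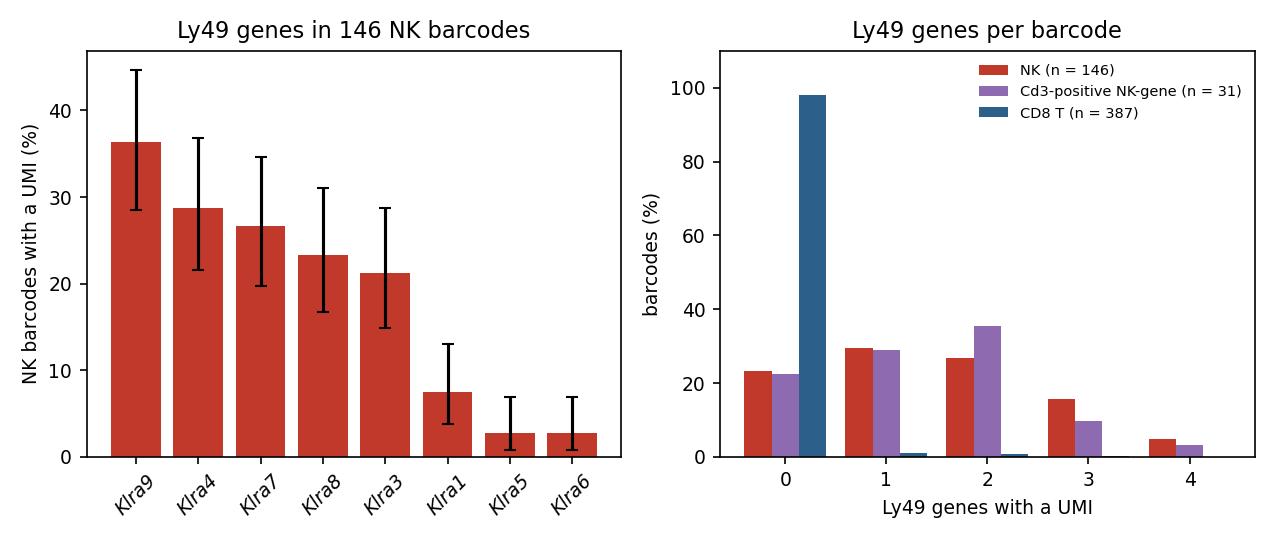
Left, share (%) of the 146 NK barcodes with a UMI of each Ly49 gene, with exact 95% intervals. Right, share of barcodes (%) by the number of Ly49 genes with a UMI in NK, Cd3-positive NK-gene and CD8 T barcodes. NK and Cd3-positive NK-gene barcodes both spread over 0 to 4 genes, and 97.9% of CD8 T had 0.

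Among signalling genes, the adaptors Tyrobp and Fcer1g stood far above CD8 T while most others did not. Of 15 members, 3 were higher past 4-fold against CD8 T, 2 were lower, and the median log2 ratio was -0.54. Tyrobp, which encodes DAP12, the adaptor of activating Ly49 receptors, was at 3505, 2719, 2090, 2728 and 4996 CPM in the NK barcodes of libraries 1 to 5, and at 26.4, 100, 125 and 0 CPM in the CD8 T barcodes of libraries 1 to 4. Fcer1g, which encodes the adaptor of NKp46 and the Fc receptor CD16, was at 2386 CPM in NK and 85.9 in CD8 T. Their log2 ratios were 5.18 (4.84 to 5.57) and 4.79 (4.47 to 5.14), and no library overlapped between classes.

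The scaffold genes went in opposite directions. Lat, the scaffold of the T cell receptor, was at 33.4 CPM in NK and 442 in CD8 T, a log2 ratio of -3.65 (-4.86 to -2.79), while its relative Lat2 was at 63.2 and 7.08 CPM, a ratio of 3.1 (1.82 to 4.67), or 1.41 after thinning to 500 UMIs. Lck, the kinase that starts T cell receptor signalling, had a ratio of -1.13 (-1.58 to -0.72). Hcst, which encodes DAP10, the adaptor of NKG2D, was at 394 CPM in NK and 573 in CD8 T, a ratio of -0.54 (-0.85 to -0.24). Syk, a kinase that Fcer1g and Tyrobp recruit, had only 13 UMIs in NK and 2 in CD8 T. Plcg1, a phospholipase of the T cell receptor cascade, was the other member counted as lower, with no UMI in NK and 35 in CD8 T, and its bound of at least 3.17-fold lower is short of 4-fold.

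**Figure D4:**
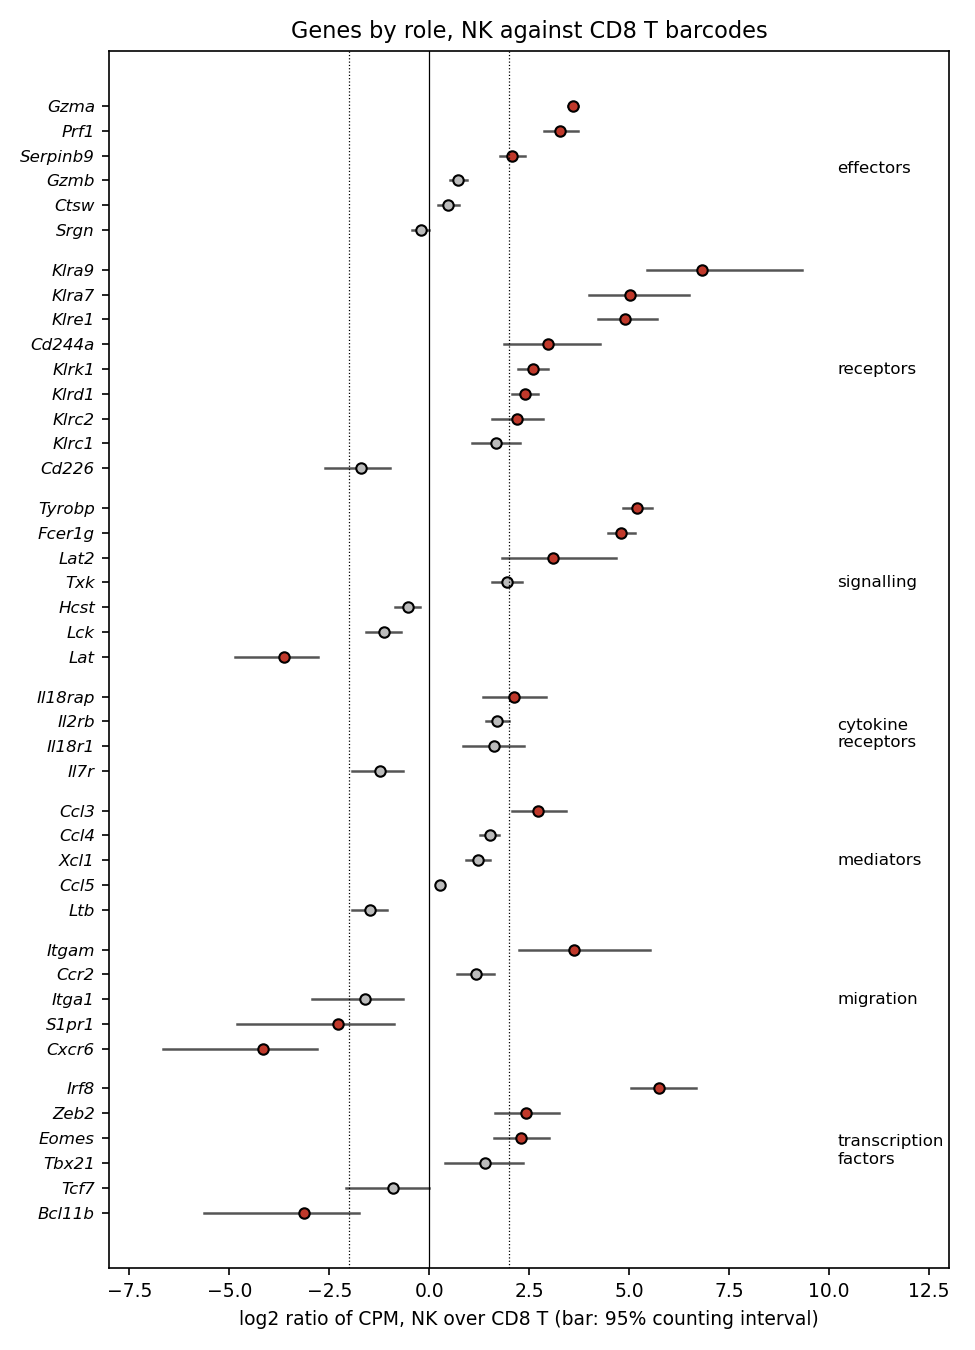
log2 ratio of CPM, NK over CD8 T barcodes, for genes grouped by role, with bars for the 95% counting interval and dotted lines at 4-fold. Red points lie past 4-fold in either direction: Irf8 (5.75) and Tyrobp (5.18) are far to the right, and Cxcr6 (-4.16) and Lat (-3.65) far to the left.

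Cytokine receptors, listed with the kinases and STAT factors that carry their signals, had 1 of 14 members higher past 4-fold, 1 lower and a median log2 ratio of 0.40 against CD8 T. Il18rap, the accessory chain of the interleukin 18 receptor, was at 119 CPM in NK and 27.3 in CD8 T, a ratio of 2.12 (1.34 to 2.92) that fell short of 4-fold under 3 of 19 alternatives, among them without library 2 (1.78). The lower member was no receptor but the factor Stat5a, with 0 UMIs in NK and 21 in CD8 T, and its bound of at least 1.90-fold lower is short of 4-fold. Il2rb, the beta chain that binds interleukins 2 and 15, was at 691 CPM in NK and 212 in CD8 T, a ratio of 1.70 (1.41 to 2.0). Il7r, the interleukin 7 receptor of T cells and many innate lymphoid cells, was at 89.2 CPM in NK against 215 in CD8 T and 459 in CD4 T. By library it was at 171, 86.0, 0 and 220 CPM in the NK barcodes of libraries 1 to 4 and at 290, 170, 232 and 146 CPM in CD8 T, so NK was lower in libraries 1 to 3 and higher in library 4.

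Among cytokines and chemokines 1 of 8 was higher past 4-fold against CD8 T, none was lower, and the median log2 ratio was 0.51. Ccl3, a chemokine for monocytes and lymphocytes, was at 201 CPM in NK and 30.3 in CD8 T, a ratio of 2.72 (2.06 to 3.42). Ccl4 followed at 1011 and 355 CPM, a ratio of 1.51 (1.28 to 1.74). Ccl5 differed little, at 11565 and 9662 CPM. Against CD4 T barcodes all 3 of these chemokine genes and Xcl1 were higher past 4-fold, with Ccl5 at 3.19 (3.07 to 3.32), and Areg, the growth factor amphiregulin, was lower, with 0 UMIs in NK and 52 in CD4 T (at least 9.90-fold). Ifng, the interferon gamma gene, was at 66.9 CPM in NK, 86.9 in CD8 T and 166 in CD4 T, and the summed NK and CD8 T values were within counting error. By library it was at 28.5, 0, 118 and 67.8 CPM in NK and at 122, 94.96, 28.4 and 56.3 CPM in CD8 T in libraries 1 to 4, so the libraries differed in direction, and the ratio was -1.54 without library 3. Lta, Csf2, Il2 and Il10 had no UMI in NK either.

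Xcl1, the chemokine for cross-presenting dendritic cells, differed between libraries. It stood at 741, 1032, 273 and 796 CPM in the NK barcodes of libraries 1 to 4 and had no UMI in the 6 of library 5. It was seen in 61.9%, 63.6%, 21.2% and 58.1% of the NK barcodes of libraries 1 to 4, so library 3 stood low. The CD8 T barcodes of library 3 were low too, at 22.7 CPM against 307, 350 and 56.3 CPM in libraries 1, 2 and 4. NK barcodes were above CD8 T barcodes for Xcl1 in each of these 4 libraries.

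Migration genes had 1 of 17 members higher past 4-fold, 3 lower and a median log2 ratio of -0.19 against CD8 T. Itgam, the integrin CD11b of mature NK cells, was the higher member and had 18 UMIs in NK and 5 in CD8 T, a ratio of 3.63 (2.24 to 5.51). Cxcr6, a chemokine receptor of tissue-resident lymphocytes, was at 11.1 CPM in NK and 231 in CD8 T, a ratio of -4.16 (-6.66 to -2.81), and was lower in each library. S1pr1 and Ccr7, receptors for exit from tissue and entry to lymph nodes, were the other lower members at -2.28 (-4.81 to -0.88) and -2.74 (-6.13 to -1.14), on 3 and 2 UMIs in NK. S1pr1 was higher in NK in library 4 (33.9 CPM on 2 UMIs, against 22.5 in CD8 T), and it fell short of 4-fold under 3 of 19 alternatives, among them without library 3 (-1.30). Ccr7 fell short under 2 of 19, with -1.36 as its weakest ratio.

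Among transcription factors 3 of 19 were higher past 4-fold against CD8 T, 1 was lower, and the median log2 ratio was 0.03. Irf8, an interferon-regulatory factor known from myeloid and NK cells, was at 1140, 1101, 691, 712 and 735 CPM in the NK barcodes of libraries 1 to 5, against 0 to 24.99 CPM in the CD8 T barcodes of libraries 1 to 4. After thinning it was seen in 29.5% of NK, 0.517% of CD8 T and 0.6% of proximal tubule barcodes. Its ratio was 5.75 (5.05 to 6.66) against CD8 T and 5.39 (4.51 to 6.61) against CD4 T. Macrophage markers were low beside it: C1qa, C1qb, C1qc, Csf1r and Adgre1 summed to 29.7 CPM in NK and 79.8 in CD8 T.

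Eomes, the T-box factor that separates NK cells from type 1 innate lymphoid cells (ILC1), was at 164 CPM in NK and 33.4 in CD8 T, a ratio of 2.29 (1.61 to 2.99) that fell short of 4-fold without library 3 (1.93), with libraries weighted equally (1.65) and without NK barcodes that held Trac or Trbc1 (1.62). Its partner Tbx21, which encodes T-bet, was at 63.2 and 24.3 CPM, a ratio of 1.39 (0.39 to 2.34). Zeb2, which acts in late NK maturation, had a ratio of 2.41 (1.63 to 3.24). Bcl11b, a T lineage factor, was the lower member at -3.13 (-5.64 to -1.76).

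Of 8 T cell genes that the rules of the classes did not use, 7 were lower past 4-fold against CD8 T, with a median log2 ratio of -3.62, or -3.04 with genes without UMIs in NK at a floor of 3 UMIs. Trac, the T cell receptor alpha constant gene, stood at 26.0 CPM in NK and 604 CPM in CD8 T, a ratio of -4.44 (-5.86 to -3.49). Cd5 and Cd6, surface regulators of T cell signals, and Themis, a thymocyte signalling protein, had none in NK and were at least 9.79-fold, 18.2-fold and 9.88-fold lower. Trbc2 was at 245 CPM in NK and 1520 in CD8 T, a ratio of -2.62 (-3.01 to -2.28). Trbc1, a T cell receptor beta constant gene, was the exception. It stood at 598, 430, 373, 407 and 147 CPM in the NK barcodes of libraries 1 to 5, and was seen in 50.7% of NK barcodes (42.3 to 59.0%) and 47.3% of CD8 T barcodes. Its ratio was -0.71 (-1.01 to -0.42), and 0.412% of proximal tubule barcodes held it. NK barcodes thus carried Trbc1 mRNA with little Trac.

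In the summed counts, cell cycle and interferon-stimulated genes leaned lower in NK. Of 10 cell cycle genes, 4 were lower past 4-fold against CD8 T and none was higher (median log2 ratio -1.91, or -1.79 at the floor). Top2a, which untangles replicated DNA, was at 29.7 CPM in NK and 161 in CD8 T, a ratio of -2.35 (-3.67 to -1.42). By library it stood at 0, 103, 18.2 and 0 CPM in the NK barcodes of libraries 1 to 4 and at 72.5, 145, 68.0 and 596 CPM in CD8 T, so the 25 CD8 T barcodes of library 4 were highest, and the ratio fell short of 4-fold under 4 of 19 alternatives, among them without library 4 (-1.55). Hmgb2, a chromatin protein of dividing cells, was likewise at 3882 CPM in the CD8 T barcodes of library 4, and in library 3 it was higher in NK (654 CPM) than in CD8 T (556). Mki67 and Birc5 were also higher in NK in library 3, at 36.3 CPM each on 4 UMIs against 28.4 and 0 in CD8 T. Cdk1, another of the 4, had 2 UMIs in NK and a ratio of -2.31 (-5.70 to -0.68) that fell short of 4-fold under 5 of 19 alternatives, among them without library 3 (-1.80). Ccnb1, a mitotic cyclin, had no UMI in NK against 29 in CD8 T, and its bound of at least 2.63-fold lower is short of 4-fold, which leaves 3 of the 4. The remaining member, Ube2c, had 2 UMIs in NK and 121 in CD8 T, a ratio of -3.72 that stayed past 4-fold under all 19 alternatives. Of 8 interferon-stimulated genes 3 were lower and none higher (median -1.31, or -1.23 at the floor). Ifi27l2a had 2 UMIs in NK, from libraries 1 and 2, and was at 558 CPM in CD8 T and 758 in CD4 T, a ratio of -5.91 (-9.28 to -4.37) against CD8 T. Ifit1 (0 UMIs in NK, with a bound of at least 2.27-fold lower that is short of 4-fold) and Ifit3 (1 UMI, ratio -2.15, -8.07 to -0.09) were the other lower members, and Ifit3 fell short of 4-fold under 9 of 19 alternatives, at -0.92 without library 3 and -1.93 without library 4. Among 9 immediate early genes none was past 4-fold against CD8 T.

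Markers of other cell types were sparse in NK, except those of the proximal tubule. Of 5 B cell markers, 4 had no UMI in NK, and Ighm, the immunoglobulin mu heavy chain gene, stood at 45.4 to 189 CPM over the libraries in NK, 85.5 CPM in all, against 89.95 in CD8 T and 121 in CD4 T. Neutrophil markers summed to 96.6 CPM in NK and 88.9 in CD8 T, and to 1013 CPM in CD4 T, where S100a8 (2595 CPM) and S100a9 (3009 CPM) were high in library 3. All 3 neutrophil genes that could be compared were lower in NK past 4-fold against CD4 T. In NK, dendritic cell markers and mast cell and basophil markers to 3.72 CPM each (48.8 CPM of dendritic cell markers in CD4 T), and endothelial markers to 22.3 CPM. The 6 markers of the other innate lymphoid classes (ILC2 and ILC3) had no UMI in NK. The 4 proximal tubule genes (Slc34a1, Miox, Kap and Slc5a2) summed to 2711 to 5816 CPM over the libraries in NK, 2492 CPM in CD8 T, 4335 in CD4 T and 24215 in barcodes under 100 UMIs, which hold mostly free RNA. The part of these markers in the other results was not tested.

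Genes of NK maturation were counted by stage, and the stages were not compared by a test. Of 6 genes of the mature stage, 3 were higher past 4-fold against CD8 T (Itgam, Zeb2 and Cma1) and none was lower. Cma1, a chymase gene also known from mast cells, had 20 UMIs in NK and none in CD8 T, at least 24.5-fold higher. The list of the mature stage has 8 genes, of which 6 against CD8 T and 4 against CD4 T passed the filter of 20 UMIs. Cma1 passed it through its UMIs in NK alone, so the counts of this stage are in part set by the filter. None of 8 genes of the CD27 stage was past 4-fold against CD8 T, and of 6 ILC1 genes 1 was lower (Cxcr6) and none higher. Against CD4 T, 4 of 4 genes of the mature stage (Gzmb, Klrg1, Zeb2 and Cma1) and 2 of 8 of the CD27 stage (Xcl1 and Cd7) were higher, and 2 of 6 ILC1 genes were lower (Cxcr6 and Il7r).

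Splits of the NK barcodes by single genes gave small groups. A UMI of Itga1 or Cxcr6, genes of ILC1 and resident NK cells, was seen in 8 barcodes, and of Itga2 or Eomes, genes of circulating NK cells, in 45, with 2 in both. Cd27, of less mature NK cells, was seen in 19 barcodes and Itgam, of mature ones, in 14, with 1 in both. Mki67 or Top2a was seen in 7 barcodes, 6 of them from library 3.

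Ly49 and Xcl1 divided the NK barcodes into larger groups, which were chosen after their values were seen. Gzma was at 8098 CPM in the 112 barcodes with a Ly49 gene and 5046 CPM in the 34 without, and Xcl1 at 478 and 1075 CPM. At depths of 1000 to 2500 UMIs the Gzma values were 9401 and 4094 CPM (87 and 27 barcodes). Barcodes with Xcl1 (59) had 4879 CPM of Gzma and 514 CPM of Cd7, an early lymphoid surface gene, and those without (87) had 9998 and 104 CPM. Library 3 gave 14 of the 59 and 52 of the 87, and the median depths were 1775 and 1397 UMIs; the part of library and depth was not tested.

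NK barcodes without Gzma had another set of genes. This split and its genes were chosen after their values were seen, so the values are a description. No Gzma UMI was found in 17 barcodes (6, 2, 3, 6 and 0 in libraries 1 to 5), with a median of 1783 UMIs against 1543 in the 129 with Gzma. Prf1 and Gzmb were each seen in 2 of the 17, against 76 and 74 of the 129. Irf8 was seen in 5 of the 17 and 85 of the 129, Klra9 in 1 and 52, and Klra4 in 1 and 41.

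Other genes went the opposite way in the Gzma-negative barcodes. Il7r was seen in 11 of the 17 (64.7%, exact 95% interval 38.3 to 85.8%) and in 3 of the 129 (2.33%, 0.482 to 6.65%). Xcl1 was seen in 14 of the 17 and 45 of the 129, at 1847 and 435 CPM. Ikzf2, which encodes the factor Helios, was seen in 7 of the 17 and 4 of the 129, and Ltb, which encodes lymphotoxin beta, in 9 and 17. The Il7r-positive barcodes among the 17 came from libraries 1, 2 and 4, at 3, 2 and 6 barcodes.

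Other NK genes outside the rule were seen in most Gzma-negative barcodes, with Tyrobp in 16 of the 17, Fcer1g in 14, Klrk1 in 11, Klrd1 in 12 and Il2rb in 12. Genes that help to tell NK cells from ILC1 were mixed. Eomes was seen in 2 of the 17 (11.8%, 1.46 to 36.4%) and 32 of the 129 (24.8%, 17.6 to 33.2%), and Itgam in 0 and 14. Cd160, an activating receptor gene, was seen in 5 and 14. Of the ILC1 genes beside Il7r, Tmem176b was seen in 9 of the 17 and 41 of the 129, Cxcr6 in 1 and 1, and Itga1 in 0 and 6, where 0 of 17, taken as at most 3 barcodes, allows a share with a UMI of up to 17.6%. T cell genes were mixed too, with Trbc1 in 7 of the 17 and 67 of the 129, Trbc2 in 5 and 31, Cd28 in 4 and 7, and Trac in 1 and 6. Proximal tubule genes summed to 2093 CPM in these barcodes and 4734 CPM in the 129.

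A further 31 barcodes met the NK rule but for at least 1 UMI of a Cd3 gene. These Cd3-positive NK-gene barcodes held Xcl1 in 20, Ikzf2 in 15, Il7r in 12 and Cd7 in 15, against 14, 7, 11 and 8 of the 17 Gzma-negative NK barcodes. Among T cell receptor genes, Trbc2 was seen in 26 of the 31 and 5 of the 17 and Trac in 13 and 1, while Trbc1 was seen in 12 and 7. Cxcr6 was seen in 11 of the 31 and 1 of the 17, Itga1 in 10 and 0, and the adaptor gene Tyrobp in 17 and 16. Gzma was at 858 CPM in them, against 7444 in NK, and Eomes and Itgam had no UMI. Fcer1g, Klrk1, Klrd1 and Gzmb were at 2075, 576, 602 and 1371 CPM in these 31 barcodes, against 2386, 606, 732 and 974 in NK. Klrk1, Klrd1, Il2rb and Fcer1g were seen in 20, 21, 22 and 22 of the 31, against 11, 12, 12 and 14 of the 17. Tyrobp and Prf1 were at 640 and 64.0 CPM in the 31, against 2624 and 639 in NK. Klra1 was seen in 18 of the 31, against 11 of the 146 NK barcodes.

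**Figure D5:**
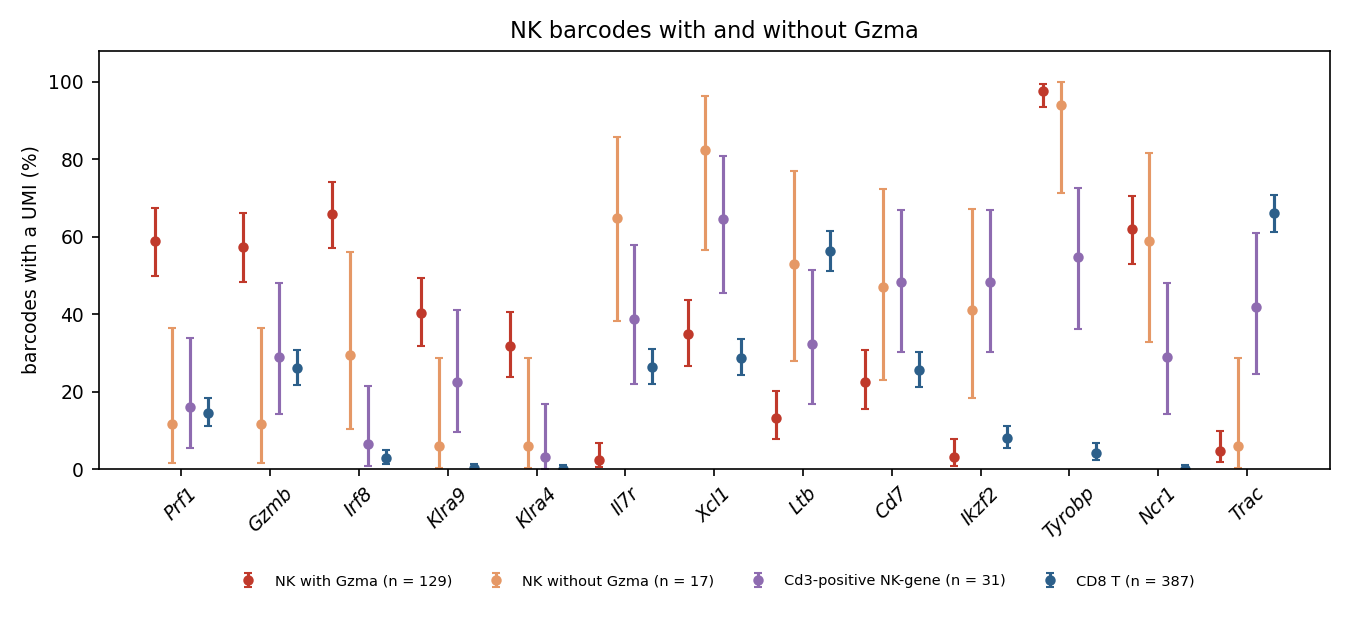
Share of barcodes (%) with a UMI of each gene in NK barcodes with Gzma (129) and without (17), Cd3-positive NK-gene barcodes (31) and CD8 T barcodes (387), with exact 95% intervals as bars. Prf1, Gzmb and Irf8 are most frequent in NK with Gzma, Il7r and Xcl1 in NK without Gzma, and Tyrobp is high in both NK groups.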

How the data were processed

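The authors processed the reads with Cell Ranger 6.0 against mm10, per the labels, and deposited a matrix of raw UMI counts for 32285 genes and 10474594 barcodes from 5 libraries, before any cell was called. The counts were read as deposited and reads were not aligned again. Kept barcodes, the NK rule and the T classes are defined with the results, and the members and gene lists (25 lists, 235 genes) were chosen with earlier results of these data known. UMIs were summed per class and divided by the class total (CPM). Intervals were exact Poisson, binomial (Clopper-Pearson) or conditional binomial at 95%. With 1 pooled sample no p-value was computed. No doublet caller was run, and only the limits on other cell types' genes act on doublets. Genes named are, per list, up to 4 of highest CPM in NK, up to 3 of largest log2 ratio and those without UMIs, the markers, the 10 highest and 10 lowest ratios against CD8 T with at least 50 UMIs, and genes of the splits. Others named were chosen after their values were seen. Some list members are not reported here and were left out of the lists. Scripts were tested on simulated data. Gene positions came from GENCODE vM21 and upstream sequences from RefSeq (GRCm38.p6). Alternatives (18, and 1 chosen after seeing the data) changed depth, rule, filter, scaling and libraries. Python 3.11.15, numpy 2.4.6, scipy 1.17.1, pandas 2.3.3, pyarrow 21.0.0 and matplotlib 3.10.9 were used.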

Additional observations from a re-analysis of the deposited data

How the results depend on the processing

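The NK share of kept barcodes (0.184%) was 0.253% with at least 1000 UMIs, 0.366% with at most 10% mitochondrial UMIs, 0.111% with at least 2 UMIs of Ncr1 and Klrb1c, 0.141% with no Lyz2 or Lrp2 UMI, and 0.0871% without NK barcodes that held Trac or Trbc1. Leaving out each library gave 0.169 to 0.211%. The count of genes past 4-fold against CD8 T (224) was 406 without NK barcodes that held Trac or Trbc1 (68 higher and 338 lower). Against CD8 T and CD4 T (211) it was 787 and 774 at a filter of 5 UMIs, 56 and 55 at 100 UMIs, 100 and 109 with 5 UMIs added (67 higher and 33 lower against CD8 T, in place of 67 and 157, and 57 and 52 against CD4 T, in place of 76 and 135), and 77 and 73 after thinning to 500 UMIs, where the filters and thinning test other numbers of genes. Adding 5 UMIs moved the median log2 ratio of all genes against CD8 T from 0.08 to 0.39. Leaving out each library gave 175 to 227 and 150 to 213. The 60 named genes past 4-fold against CD8 T include Ncr1, Klrb1c and the Cd3 and Cd8 genes, whose direction the rules fix under every alternative. The filters of 5 and 100 UMIs could not change the ratio of any gene. Of the 60, between 48 and 60 stayed past 4-fold under each alternative. All 60 kept their direction except C1qb (1 UMI in NK), at 0.26 without library 2 and -3.48 without library 3 in place of -2.42. The cause was not tested. The alternative chosen after seeing the data set the median log2 ratio of all genes to 0, and 59 of the 60 stayed past 4-fold.

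No paired analysis was possible because each condition has 1 sample. The classes were compared within libraries as values only, with no test, since the rule chose the NK barcodes by their expression. Condition, mice and library cannot be told apart in differences between libraries, and the 6 NK barcodes of library 5 set its values. A gene with few UMIs could not be told from absent at this depth.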
